A study of Danio rerio with 14 samples.

Results

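The regions described here are 2803 consensus peaks of the histone variant H2A.Z that were listed when TDCIPP-treated zebrafish embryos were compared with DMSO controls and that had no counterpart in the list made for 5-AzaC against DMSO. They were chosen by position: a peak of the TDCIPP table was taken when no peak of the 5-AzaC table on the same chromosome or scaffold overlapped it by 1 bp or more. They make up 2803 of the 28988 peaks of the TDCIPP table, and the other 26185 overlapped a 5-AzaC peak. H2A.Z was mapped in wild-type AB/Tuebingen embryos at 6 hours after fertilization by CUT&Tag, in which an antibody guides a transposase that cuts and tags the DNA around the bound protein. TDCIPP was given at 3.12 µM in 5 mL from 0.75 hours (2 samples), 5-AzaC at 100 µM from the 1-cell stage onward (3 samples), and the controls received 0.1% DMSO (3 samples). All were kept at around 50 embryos per well, and each library used around 10000 cells from whole embryos, so the signal of different cell types is mixed. TDCIPP is an organophosphate flame retardant, 5-AzaC (5-azacytidine) is a cytidine analogue that inhibits DNA methyltransferases, and DMSO is the solvent control.

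H2A.Z takes the place of H2A in some nucleosomes, mostly beside active or poised gene starts and at enhancers. In early zebrafish embryos it is known to mark DNA that stays free of methylation, and it is largely kept apart from methylated DNA, which in this genome includes most repeats. The study's title asks about competition for H2A.Z when repetitive elements lose their repression. Absence from the 5-AzaC list does not show that H2A.Z was absent after 5-AzaC, since the 5-AzaC level at these peaks was not analysed here and some of them were strong in DMSO.

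Each table gives a level for every peak in each group, and the authors' log2 change, p-value and false discovery rate (FDR). The levels are taken here as log2 of normalised reads over the whole peak, since no unit is stated with them. The tables hold one value per group, so no spread between samples can be given and the read depth of the libraries is unknown. The labels do not say whether samples of a group came from separate clutches, and the deposited p-values then measure only the spread between these samples. Both tables use the same DMSO scale: 5294 of the 5295 peaks with identical coordinates had the same DMSO level in both. Which peaks enter a list depends on the H2A.Z signal of the libraries behind it, TDCIPP included. The TDCIPP and DMSO levels, the change and the width of the selected peaks are therefore given as a description, with no test. Coordinates are those of the tables. The submitters' processing notes name the build GRCz11. Whether starts are counted from 0 or from 1 is not given in the sources used here.

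The peaks without a 5-AzaC counterpart were weak, and most had more signal after TDCIPP than in DMSO. Their median level was 2.44 after TDCIPP (quartiles 1.78 and 3.14), or 5.43 normalised reads, and 2.02 in DMSO (quartiles 1.42 and 2.61), or 4.06 reads. In the overlapping peaks the medians were 3.31 after TDCIPP and 3.80 in DMSO, or 9.92 and 13.9 reads. By the authors' deposited table the log2 change had a median of 0.43 over the selected peaks (quartiles -0.35 and 1.23), against -0.58 over the overlapping peaks (quartiles -1.03 and -0.02) and -0.53 over the whole table. The change was above 0 in 1790 of the 2803 selected peaks (63.9%) and in 6293 of the 26185 overlapping peaks (24%). The selected peaks spanned a range of changes from -3.01 to 4.63 in the authors' deposited table, so the set holds peaks of both directions. Summed over the 1.77 Mb they cover, their signal after TDCIPP was 1.47 times that in DMSO, with means of 7.29 and 4.97 reads per peak. Over the 23.3 Mb of the overlapping peaks the ratio was 0.763, with means of 15.1 reads after TDCIPP and 19.8 in DMSO. The selected peaks held 4.92% of the TDCIPP signal of the table and 2.62% of its DMSO signal.

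**Figure D1:**
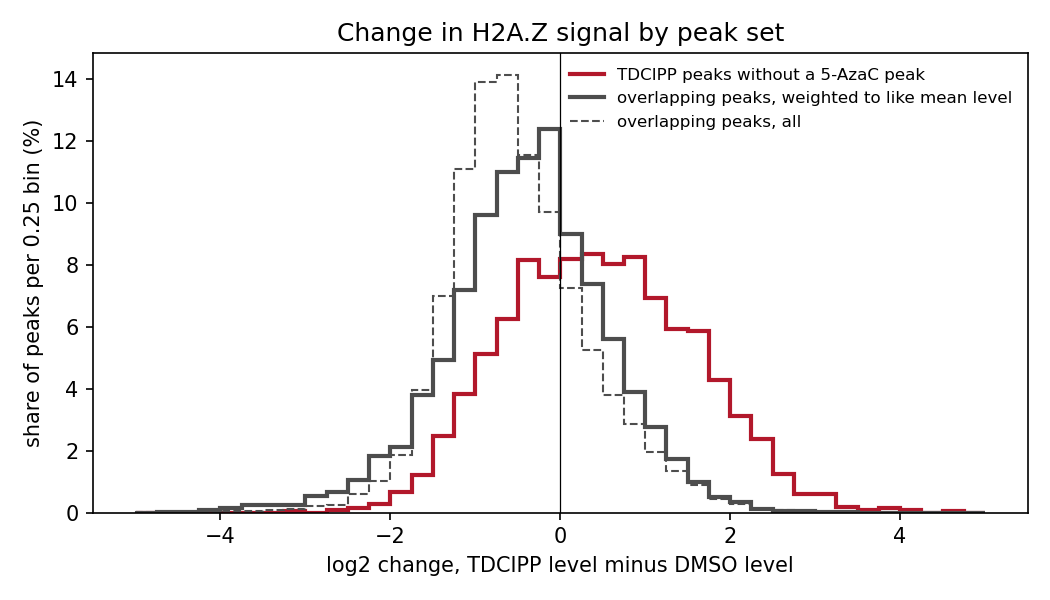
Share of peaks (y axis, %) in bins of 0.25 of the deposited log2 change, TDCIPP level minus DMSO level (x axis), for the peaks without a 5-AzaC counterpart (red), the overlapping peaks weighted to the same mean levels (solid grey) and all overlapping peaks (dashed grey). The red curve is centred at a median of 0.43 and the solid grey one at -0.37, and the 3 curves overlap widely.

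Since the selected peaks were weak, they were set beside overlapping peaks of like mean level. Overlapping peaks were weighted so that each of 20 bins of mean level held the same share as among the selected peaks. Both sets then had a median mean level of 2.26, and 25865 overlapping peaks lay inside the range. The selected peaks had median levels of 2.44 after TDCIPP and 2.02 in DMSO, against 2.02 after TDCIPP and 2.36 in DMSO for overlapping peaks at like level. By the authors' deposited table the log2 change of these overlapping peaks had a median of -0.37, with quartiles of -0.96 and 0.20, and 32.2% of the weight lay above 0. The mean level includes the TDCIPP level that also helps a peak into the list, and the choice of what to match on moved this comparison. When peaks were matched on the DMSO level instead, the overlapping peaks had a median change of 0.19 in the authors' deposited table and 56.9% of them lay above 0. The median TDCIPP level was then 2.44 in the selected peaks and 2.26 in the overlapping peaks, at a median DMSO level of 2.02 in both. Matched on the TDCIPP level, the median change of the overlapping peaks was -0.77.

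The distance between the medians of the sets depended on the level used for grouping. In the weakest of 5 groups of selected peaks, at mean levels from 0.36 to 1.63, the median change in the authors' deposited table was 0.29, against -0.14 in overlapping peaks of that range. In the strongest group, from 2.946 to 6.33, it was 0.80, against -0.64. The intermediate groups had medians of 0.25, 0.36 and 0.48, against -0.29, -0.38 and -0.45. The quartiles of the 2 sets overlapped in each of the 5 groups, and in the strongest the sets lay at unlike levels, with median DMSO levels of 3.06 and 4.15. Grouped by DMSO level instead, the median change of the selected peaks in the weakest to the strongest group was 1.46, 0.57, 0.35, 0.075 and -0.25 by the authors' deposited table. For overlapping peaks it was 0.99, 0.50, 0.09, -0.19 and -0.67 by the authors' deposited table, so the sets lay closer together than when grouped by mean level in 4 of the 5 groups. Peaks without a counterpart were common among the weakest peaks of the table and rare among the strong ones: they made up 58.3% of all peaks in the weakest group, 36.3%, 24% and 14.4% in the next 3, and 2.82% in the strongest. A small number had almost no signal in the control. The lowest DMSO level of the table, -0.41 or 0.753 normalised reads, belonged to 19 selected peaks and to 0 overlapping ones, and 49 selected against 2 overlapping peaks had a DMSO level under 0. Whether the value shared by the 19 peaks is a floor was not tested. Fold changes at the peaks with a DMSO level under 0 rest on very few control reads. A TDCIPP level under 0 was listed for 22 selected peaks (0.785%) and for 126 overlapping peaks (0.481%). For overlapping peaks the share was 3.61% at like mean level and 1.52% at like DMSO level. The TDCIPP level also bears on which peaks were listed, so nothing is read from these shares.

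Their width was close to that of overlapping peaks at like mean level, but this depended on the match. Matched on the DMSO level the median width of overlapping peaks was 503 bp, and matched on the TDCIPP level 655 bp. The median width was 529 bp (quartiles 414 and 768 bp) in the selected peaks, 520 bp in overlapping peaks at like mean level (quartiles 428 and 692 bp) and 794 bp in all overlapping peaks. Of the selected peaks 1251 (44.6%) were under 500 bp wide and 356 (12.7%) over 1000 bp, against 4213 (16.1%) and 8265 (31.6%) of the overlapping peaks. In the strongest of the 5 groups the selected peaks were narrower, with a median of 755 bp against 887 bp, and in the middle group wider, with 557 bp against 513 bp. The unlike levels in the strongest group apply to these widths too.

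**Figure D2:**
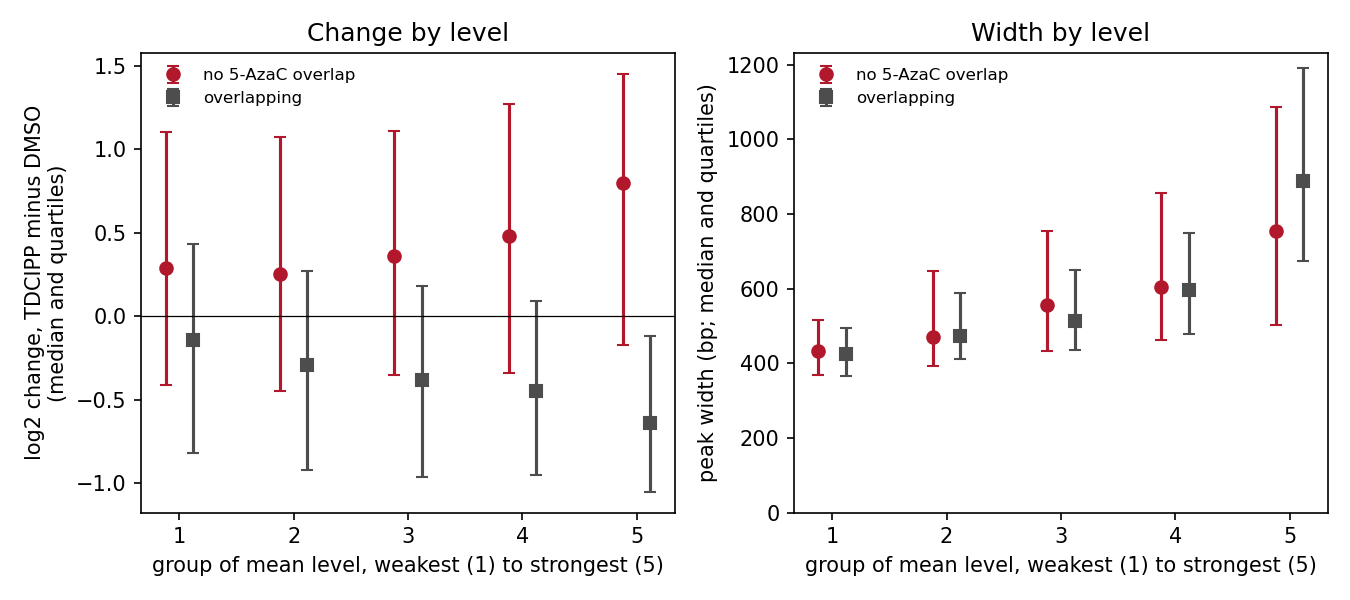
Median and quartiles of the deposited log2 change (left) and of peak width in bp (right) in 5 groups of mean level, from weakest to strongest (x axes), for the peaks without a 5-AzaC counterpart (red circles) and the overlapping peaks (grey squares). The red medians of change lie between 0.25 and 0.80 and the grey ones between -0.14 and -0.64, while the medians of width rise with level in both sets.

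Few of these peaks passed the authors' test. The deposited FDR was under 1 for 305 of the 2803 selected peaks (10.9%) and for 64.4% of the overlapping peaks. At like mean level the share among overlapping peaks was 11%. By the authors' deposited table, at an FDR under 0.05, 53 selected peaks were higher after TDCIPP and 6 were lower. These are 1.89% and 0.214% of the selected peaks, against 1.21% called higher and 5.81% called lower over all peaks of the table. An FDR under 1 was given to 10.9% of the selected peaks and to 59.3% of the whole table. The shares over the whole table therefore do not compare like with like. Among overlapping peaks at like mean level, 0.117% of the weight was called higher and 0.786% lower by the authors' deposited table. Matched on the DMSO level instead, these shares were 0.971% and 0.466%. The calls use the same TDCIPP and DMSO libraries that bear on which peaks were listed. The counts therefore describe the set, and nothing is read from the difference between these shares. The 53 higher and 6 lower calls all lay in the strongest of the 5 groups of mean level. No overlapping peak was called in the weaker groups either. At low levels the deposited FDR did not follow the unadjusted deposited p. A selected peak at a mean level of 2.61 had a p of 0.0148 and an FDR not under 1. At a mean level of 6.33 a p of 0.325 came with an FDR of 0.486. Weaker peaks may not have been open to a call, so nothing is read from the absence of calls there. A deposited FDR of exactly 1 was given for 2498 selected peaks. At an unadjusted deposited p under 0.05, 374 selected peaks were higher (13.3%, against 4.11% of the whole table) and 32 lower (1.14%, against 18.2%). In overlapping peaks at like mean level these shares were 1.04% higher and 7.36% lower. At like DMSO level they were 7.50% and 3.06%.

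The 53 higher peaks had TDCIPP levels between 4.22 and 7.25, with a median of 4.58, and DMSO levels between -0.05 and 5.29, with a median of 2.59. Their changes ran from 1.10 to 4.63 in the authors' deposited table. They lay on 26 chromosomes or scaffolds, 36 of them on assembled chromosomes, 16 on alternate-locus sequences, which carry other haplotypes of the same regions, and 1 on an unplaced sequence. The largest change belonged to a 518 bp peak on chromosome 6 from 31721198 to 31721716. Its level was 4.58 after TDCIPP and -0.05 in DMSO, and the authors' deposited table gave a log2 change of 4.63 at an FDR of 0.000376. The nearest 5-AzaC peak was 15343 bp away. Next came chromosome 8, 45766953 to 45768197 (1244 bp), where the level was 4.57 after TDCIPP and 1.30 in DMSO. Its change in the authors' deposited table was 3.27 (FDR 0.00747). On an alternate-locus sequence of chromosome 8, the 558 bp between 141426 and 141984 had levels of 4.37 after TDCIPP and 1.25 in DMSO. Its change in the authors' deposited table was 3.12 (FDR 0.00554). All 3 had little signal in the control, at DMSO levels of 1.30 or less. The peak on chromosome 7 from 59710122 to 59710666 had levels of 4.73 after TDCIPP and 2.08 in DMSO, and the authors' deposited table gave a change of 2.66 (FDR 0.0046). The next lay on the long arm of chromosome 4 from 34793057 to 34793871, 75709 bp from the nearest 5-AzaC peak. Its levels were 4.60 after TDCIPP and 1.95 in DMSO, and the authors' deposited table gave a change of 2.65 (FDR 0.00411).

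The 6 lower peaks were strong in the control and each had a 5-AzaC peak close by. Their TDCIPP levels lay between 2.28 and 3.99 and their DMSO levels between 4.15 and 5.31. A lower call itself requires the lower TDCIPP level. They were all on assembled chromosomes and between 1126 and 3107 bp from a 5-AzaC peak. Of the 53 higher peaks 37 lay within 10 kb of one, and of all selected peaks 1035 (36.9%). Calls were limited to the strongest group of mean level, so nothing is read from the nearness of the 6. The largest drop was on chromosome 11 between 39118151 and 39119132 (981 bp), where the level was 2.28 after TDCIPP and 4.15 in DMSO. The authors' deposited table gave it a change of -1.87 (FDR 0.0436). Chromosome 1 followed, between 45922728 and 45923492 (764 bp), with 3.20 after TDCIPP and 4.93 in DMSO. The authors' deposited table gave it a change of -1.73 (FDR 0.0175). The other 4 had changes between -1.63 and -1.32 and FDRs up to 0.0465 in the authors' deposited table, on chromosomes 3, 10, 19 and 7. The 1679 overlapping peaks called lower had, by the authors' deposited table, changes from -4.87 to -0.92 around a median of -1.54, so these 6 lay within their range.

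The strongest selected peaks stood inside stretches of evenly spaced peaks on chromosome 15. Of the 5 with the highest TDCIPP level, 4 were there, and the same 4 had the smallest FDRs. The peak from 9842508 to 9843093 had a level of 7.25 after TDCIPP and 4.81 in DMSO, and the authors' deposited table gave a change of 2.44 (FDR 3.01e-06). The peak from 9817118 to 9817702 had 7.19 after TDCIPP and 5.04 in DMSO, and the peak from 9743517 to 9744251 had 7.15 and 5.01. In the authors' deposited table both had a change of 2.15, with FDRs of 5.95e-05 and 1.79e-05. The peak from 7280414 to 7280801, in a second stretch, had 7.13 after TDCIPP and 4.80 in DMSO, and the authors' deposited table gave a change of 2.34 (FDR 3.08e-05). The DMSO levels of these 4 lay between 4.80 and 5.04, against a median of 2.02 over the selected set, so they were well covered in the control.

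Most neighbours of these peaks have a 5-AzaC counterpart, as do 26185 of the 28988 peaks of the whole TDCIPP table. At mean levels from 2.946 to 6.33, 2.82% of the table's peaks had none. Nothing is read from the counts with and without a counterpart in these stretches. The first stretch runs from 9634972 to 9888531 and holds 50 TDCIPP-table peaks whose starts lie a median of 4252 bp apart (quartiles 4078 and 4651 bp). Of these, 5 had no 5-AzaC counterpart, with TDCIPP levels from 4.45 to 7.25 and DMSO levels from 3.20 to 5.20. The 45 overlapping peaks had a median level of 7.21 after TDCIPP (range 2.84 to 7.70) and 5.30 in DMSO (range 3.69 to 6.32). Changes ran from 1.10 to 2.44 in the 5 and had a median of 1.79 in the 45 (range -1.37 to 2.49) in the authors' deposited table, so the 5 lay inside the range of their neighbours. The authors' deposited table called 4 of the 5 and 41 of the 45 higher. The 5-AzaC table listed 46 peaks in the same interval, with a median 5-AzaC level of 4.75 and, in the authors' deposited table, a median change of -0.58 against DMSO. Of these, 9 were called lower and 0 higher by the authors' deposited table, in which 12.5% of all 5-AzaC peaks were called lower and 0.301% higher. At an unadjusted deposited p under 0.05 the interval had 16 lower and 0 higher, against 28% and 1.02% of all 5-AzaC peaks. The selected peaks of the stretch were between 2695 and 3631 bp from the next 5-AzaC peak, less than 1 spacing. In the second stretch, from 7197143 to 7291131, 1 of 21 peaks had no 5-AzaC counterpart. The spacing there was 4249.5 bp, close to that of the first stretch, and the authors' deposited table gave the 20 overlapping peaks a median change of 1.525 (range -0.02 to 2.04), so the selected peak at 2.34 lay above each of them. The 5-AzaC table listed 21 peaks in this second interval, whose median change by the authors' deposited table was -0.65, with 2 called lower and 0 higher. At an unadjusted deposited p under 0.05, 10 of these were lower and 3 higher. The last of the 5 strongest lay on chromosome 5 from 822568 to 823807. Its level was 6.78 after TDCIPP and 5.92 in DMSO, and the authors' deposited table gave a change of 0.86 (FDR 0.486). The 6 overlapping peaks around it ran from -0.30 to 1.37 in the authors' deposited table. The 5-AzaC peaks there, 6 in number, had a median change of 1.195 in the authors' deposited table, of the opposite sign to both chromosome 15 stretches, with 0 called and 0 at an unadjusted p under 0.05. Where evenly spaced peaks are near-identical copies they can share reads, and whether they do was not tested here.

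**Figure D3:**
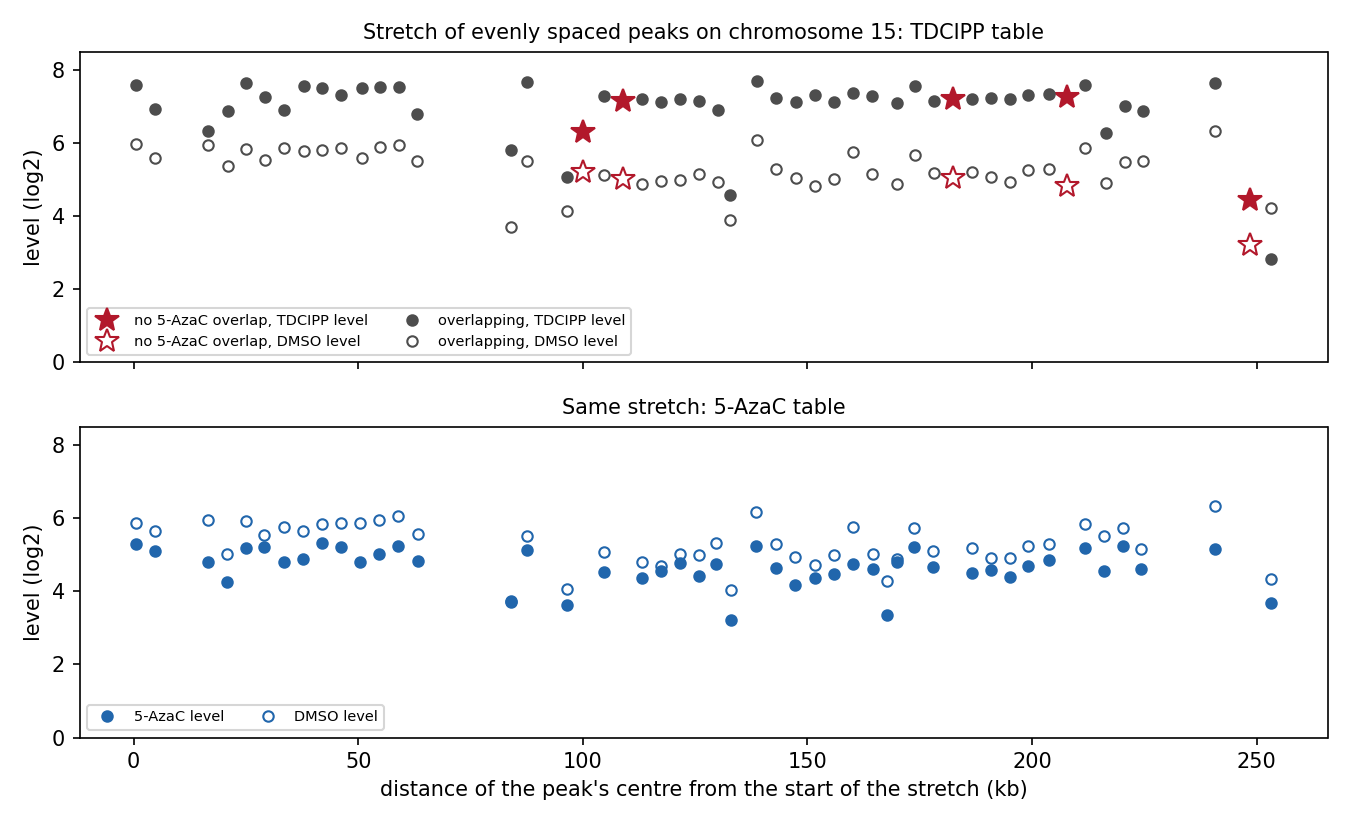
Levels on the log2 scale (y axis) of the peaks in the longer stretch on chromosome 15 by distance from its start in kb (x axis), in the TDCIPP table (top: stars have no 5-AzaC counterpart, circles overlap one, filled is the TDCIPP level and open the DMSO level) and in the 5-AzaC table (bottom: filled is the 5-AzaC level, open the DMSO level). The stars lie among the circles at TDCIPP levels of 4.45 to 7.25, and at DMSO levels of 3.20 to 5.20, of which 3.20 is below the lowest open circle (3.69).

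Such crowding was the exception. Of the selected peaks 1122 had no other peak of the TDCIPP table within 25 kb, 919 had 1, 704 had 2 to 4, and 58 had 5 or more. The 58 crowded peaks had a median TDCIPP level of 3.76 and a median DMSO level of 2.97, and a median change of 1.14 in the authors' deposited table, where the overlapping peaks of such places had 0.445. The 1122 lone peaks had median levels of 2.33 after TDCIPP and 1.88 in DMSO and a median change of 0.505 in the authors' deposited table, against -0.54 in overlapping peaks with no other within 25 kb. Of the 53 higher calls, 15 were in the crowded places and 38 elsewhere. Among the 299 overlapping peaks called higher, 117 were in crowded places, so nothing particular to the selected peaks is read from this count. The share of table peaks without a 5-AzaC counterpart was 11.3% among lone peaks and 10.1% among crowded ones, with 9.33% and 8.16% in between.

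Some of the selected peaks formed runs of their own. Another selected peak lay within 10 kb of 135 (4.82%), and any other peak of the TDCIPP table within 10 kb of 972 (34.7%). Selected peaks are only 2803 of the 28988 in the table, so nothing is read from the size of the first share. Chaining gaps of up to 10 kb left 2668 single peaks, 60 pairs and 4 longer runs. The longest run held 5 peaks on an alternate-locus sequence of chromosome 21, from 34160 to 58618. Their TDCIPP levels lay between 4.40 and 4.97 and their DMSO levels between 1.92 and 3.59, with a single value per group at each peak. Their changes ran from 1.38 to 2.48 in the authors' deposited table, and 3 of the 5 had an FDR under 0.05. The widths of 4 of them were nearly equal, between 391 and 396 bp, and successive starts were 4666, 9324, 4594 and 4634 bp apart, the 9324 bp interval being longer than the other 3. Over the whole run, from 34160 to 58618, 1 peak was listed for 5-AzaC and 6 for TDCIPP. The 5-AzaC peak lay inside the 9324 bp interval, 4340 bp from the second selected peak and 4270 bp from the third. The remaining TDCIPP-table peak of the run overlapped a 5-AzaC peak. The second run held 4 peaks on chromosome 6 from 22731770 to 22744555, with TDCIPP levels from 3.07 to 4.57 and DMSO levels from 0.78 to 2.36. By the authors' deposited table, changes there ran from 1.85 to 2.49 and 2 of the 4 were called higher, and the 5-AzaC table had 0 peaks in the interval. In the 2 runs of 3 peaks the changes were not all positive. On chromosome 14 from 5151576 to 5159446 the levels were 2.18 to 2.83 after TDCIPP and 0.36 to 3.04 in DMSO, with a median change of -0.21 in the authors' deposited table. On chromosome 21 from 18879226 to 18895301 they were 2.39 to 2.88 and 2.38 to 2.88, with a median change of 0 and 0 of 3 called in the authors' deposited table, where each of the 3 had an unadjusted p above 0.05.

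Position was not used to rank or pick the peaks beyond the overlap itself, and the long arm of chromosome 4 had the highest share among the assembled chromosomes. This arm, taken here from 25 Mb, is known as a late-replicating, repeat-rich region. It held 153 of the 2803 selected peaks (5.46%), against 1.81% of the overlapping peaks and 2.80% of overlapping peaks at like mean level. Matched on the DMSO level the last share was 4.04%, and matched on the TDCIPP level 2.01%. Put the other way round, 153 of the 626 table peaks on the arm (24.4%, 95% Wilson interval 21.2 to 28.0) had no 5-AzaC counterpart, against 28 of 452 on the short arm (6.19%, 4.32 to 8.81) and 2004 of 22857 on the other assembled chromosomes (8.77%, 8.41 to 9.14). Peaks are not independent replicates and these intervals cover counting error only. The arm's share was above that of the other chromosomes in each group of mean level, from 69.4% against 58.8% in the weakest to 11.1% against 2.39% in the strongest. Levels were not matched inside these groups, and the strongest is wide. The overlapping peaks had a median mean level of 3.32 on the arm and 3.69 on the other assembled chromosomes. The density along the arm was uneven: in windows of 5 Mb the share ran from 14.3% between 25 and 30 Mb to 47.5% between 30 and 35 Mb, where 28 of 59 peaks had no counterpart. The 5-AzaC table had the same feature, with 192 of its 665 peaks on the arm (28.9%) absent from the TDCIPP table, against 2757 of 23610 (11.7%) on the other assembled chromosomes. The high share on this arm was thus measured in both tables, which share the DMSO libraries and are not independent.

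On the long arm the selected peaks had a median TDCIPP level of 2.47 and a median DMSO level of 1.94, and 113 of the 153 (73.9%) had a positive change. Their median change in the authors' deposited table was 0.64, against -0.03 in the overlapping peaks of the arm. On the short arm 11 of 28 were above 0, and the authors' deposited table gave a median of -0.42, against -0.68 in the overlapping peaks. The 28 peaks of the short arm are few, and the difference between the arms was not tested. Of the 53 higher calls 4 lay on the long arm, as did 10 of the 299 higher calls among overlapping peaks. Elsewhere the share of peaks without a counterpart ranged from 6.70% on chromosome 5 to 10.5% on chromosome 1. The median change of the selected peaks was positive on each of the 25 chromosomes, lowest on chromosome 10 at 0.10 and highest on chromosome 9 at 0.735 in the authors' deposited table.

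Alternate-locus sequences carried a somewhat larger share of these peaks than of the overlapping ones. They held 568 of the 2803 (20.3%), against 15.5% of the overlapping peaks, 17.9% of those at like mean level and 18.1% at like DMSO level. Their median change was 0.37 in the authors' deposited table, against -0.44 in overlapping peaks of that class. These 568 were spread over 395 sequences, at most 6 on any of them, and some may be copies of peaks on the matching chromosome. In the 5-AzaC table the difference at like mean level went the other way, with 15.8% of the peaks found alone on alternate-locus sequences against 19.9%. Unplaced sequences held 50 selected peaks (1.78%), with a median change of 0.56 in the authors' deposited table. Of the overlapping peaks they held 1.48%, and 1.63% at like DMSO level, so no excess is read there. There were 34 selected peaks on sequences with 0 peaks in the 5-AzaC table, 14 on alternate-locus and 20 on unplaced ones. At the ends of the assembled chromosomes the share was not raised: 56 of 793 peaks in the first megabase (7.06%) and 58 of 769 in the megabase before the last listed peak (7.54%) had no counterpart, against 2071 of 22373 elsewhere (9.26%).

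**Figure D4:**
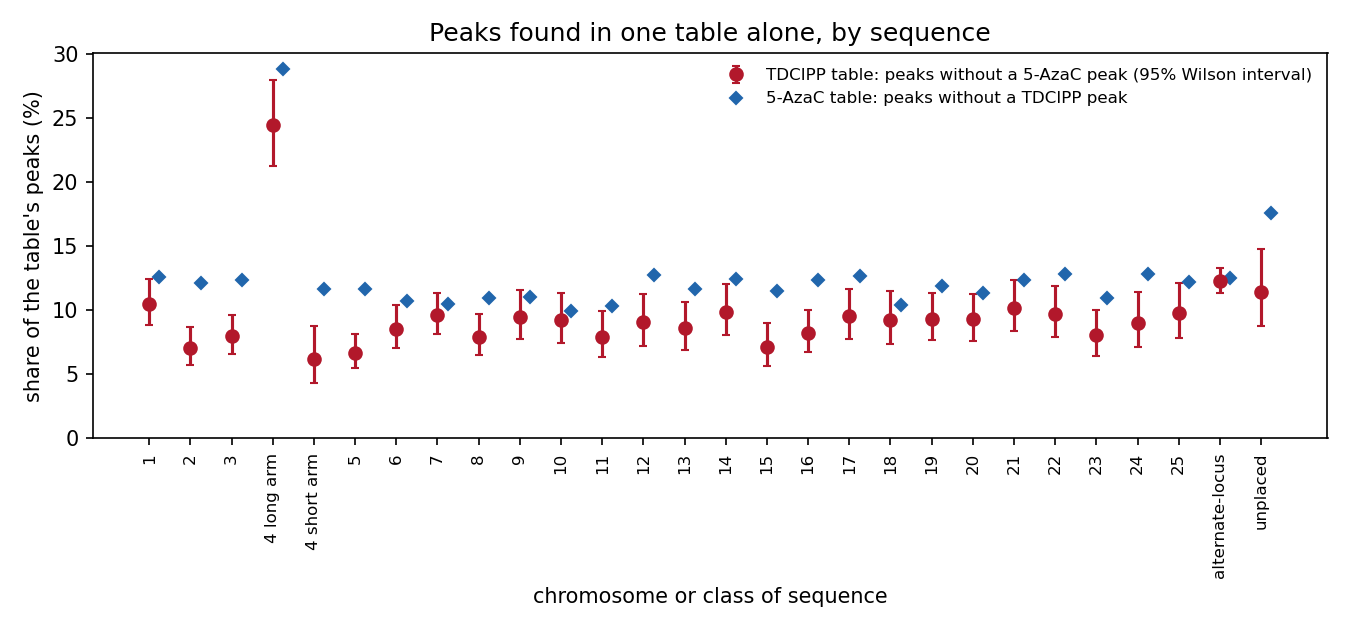
Share of peaks found in one table alone (y axis, %) on each assembled chromosome, with chromosome 4 split into its arms, and on alternate-locus and unplaced sequences (x axis), for the TDCIPP table (red circles with 95% Wilson intervals) and the 5-AzaC table (blue diamonds). The long arm of chromosome 4 stands at 24.4% and 28.9%, while the other chromosomes of the TDCIPP table lie between 6.70% and 10.5%.

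Most of the selected peaks lay several kilobases or more from any 5-AzaC peak, which is near the ordinary spacing of listed peaks. Overlapping peaks lay a median of 14806.5 bp from the nearest other peak of the TDCIPP table, 36.7% of them within 10 kb. The distance to the nearest 5-AzaC peak had a median of 16546 bp (quartiles 6124 and 41003 bp) over the 2769 peaks on sequences that carry one. It was at most 100 bp for 2 peaks, at most 1000 bp for 31 and over 100 kb for 169. Just inside the rule, the 5 closest peaks lay 1, 19, 183, 311 and 325 bp from a 5-AzaC peak, and had changes of -0.99, -2.36, 0.90, -0.13 and 0.98 in the authors' deposited table. Just outside it, the 5 peaks with the smallest overlaps shared 37, 44, 162, 171 and 223 bp, and had changes of 0.04, -0.07, -1.05, 1.03 and 0.39 in the authors' deposited table. Changes of both signs were thus present on either side of the boundary. The median change by distance was lowest within 1 kb of a 5-AzaC peak and highest beyond 100 kb. The 31 peaks within 1 kb had a median of -0.13 (authors' deposited table), the 280 between 1 and 3 kb 0.26, the 724 between 3 and 10 kb 0.42, the 812 between 10 and 30 kb 0.40, the 753 between 30 and 100 kb 0.53 and the 169 beyond 100 kb 0.69. The quartiles of these groups overlapped throughout. Median levels were 2.92 after TDCIPP and 2.705 in DMSO between 1 and 3 kb, and 2.33 and 1.71 beyond 100 kb. Of the 53 higher calls, 37 lay within 10 kb of a 5-AzaC peak and 1 beyond 100 kb. Among all selected peaks these numbers were 1035 (36.9%) and 169. Calls were limited to the strongest group of mean level, so these counts are not read as an effect of distance.

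**Figure D5:**
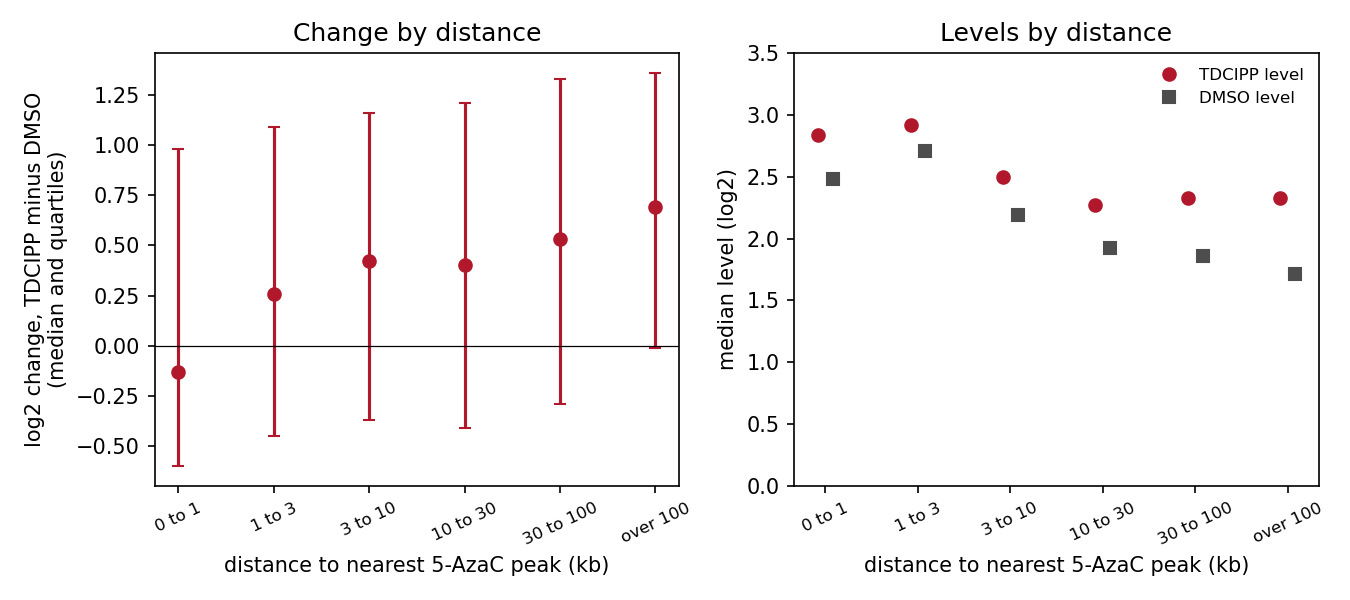
Peaks without a 5-AzaC counterpart by distance to the nearest 5-AzaC peak in kb (x axes): median and quartiles of the deposited log2 change (left) and median TDCIPP level (red circles) and DMSO level (grey squares) on the log2 scale (right). The median change runs from -0.13 within 1 kb to 0.69 beyond 100 kb, with wide quartiles, and both median levels are lower beyond 3 kb than within it.

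Neighbouring peaks of the same table did not show the same median change. An overlapping TDCIPP-table peak lay within 10 kb of 882 selected peaks. The selected peaks of these pairs had a median change of 0.39 and their neighbours -0.44 in the authors' deposited table, with 548 (62.1%) of the selected peaks and 277 (31.4%) of the neighbours above 0. The selected peak had the higher change of the pair in 639 of 882 and the lower mean level in 721 of 882. The pairs were not matched on level, with median mean levels of 2.56 in the selected peaks and 3.59 in the neighbours. The whole sets already differ in the same direction, so no local contrast is read from these pairs. The nearest other peak of the table was a median of 17656 bp from a selected peak (quartiles 6669 and 42869 bp), against 18274 bp (quartiles 8637 and 38652 bp) for overlapping peaks at like mean level. It lay within 10 kb for 34.7% of the selected peaks and 29.6% of overlapping peaks at like mean level.

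The reverse set, 3669 peaks of the 5-AzaC table that overlapped no TDCIPP peak, was also weak. Its median level was 2.07 after 5-AzaC and 2.20 in DMSO, and its median width was 540 bp, against 533 bp at like mean level. The median change against DMSO in the authors' deposited table was -0.18, against -0.74 in the 5-AzaC peaks that overlap and -0.56 in those at like mean level. In both tables the median change of the peaks found alone was higher than that of overlapping peaks at like mean level, 0.43 against -0.37 for TDCIPP-only peaks and -0.18 against -0.56 for 5-AzaC-only peaks in the authors' deposited tables. Matched on the DMSO level these were closer, 0.43 against 0.19 and -0.18 against -0.24 in the authors' deposited tables. A positive change was listed for 63.9% of the TDCIPP-only peaks and for 1507 (41.1%) of the 3669. Both comparisons share the DMSO libraries, whose signal bears on which peaks enter either list. The tables are therefore not independent, and nothing is read from the shared direction of these differences. The TDCIPP group has 2 samples and the 5-AzaC group 3, and the sizes of the differences were not tested against each other.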

How the data were processed

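H2A.Z CUT&Tag values came from 2 deposited tables, TDCIPP (2 samples) against DMSO (3) and 5-AzaC (3) against DMSO, with 1 row per consensus peak. Bowtie2, Picard, MACS2, deepTools and DiffBind and the build GRCz11 are named in the submitters' processing notes, without role or version. Scaling, the rule for entering a consensus list and the test are not given in the sources used here. The deposited levels and changes are taken here as log2, which their column names do not state. The authors also give a p-value and an FDR per peak. The deposited change equals the treated minus the DMSO level to within 0.01 for all 2803 selected peaks. Reads in repeats may be placed at several copies, which bears on arrays and alternate loci. The 6 samples with H2A.Z overexpression are not analysed here.

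Overlaps, gaps, runs and weighted medians were computed in Python 3.11.15 with pandas 2.3.3, numpy 2.4.6 and scipy 1.17.1. The same functions were tested on simulated tables. No count model was fitted, since the tables hold group values, and depth is unknown. Calls are the authors' (FDR under 0.05). The named peaks are the 5 most positive and 5 most negative called, the 5 with the highest TDCIPP level, the 5 with the smallest FDR, the 5 closest to a 5-AzaC peak, the 5 smallest overlaps and the 3 largest runs, with ties; the sixth lower call and the stretches were chosen after their values were seen. The members and lists were chosen with earlier results of these data known. Gene lists, gene starts, GC and repeat content were not analysed here because no annotation of this build was used, and no sequence is printed.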

Additional observations from a re-analysis of the deposited data

How the results depend on the processing

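No paired analysis was possible because each group has a single value per peak. Replicates could likewise not be left out, and the gene-start and repeat-content alternatives were not run. Of 41 alternative values 22 stayed close to the reported one (counts within 1.5 times, medians and shares within a 95% interval over peaks), 18 moved and 1 changed sign. The share of overlapping peaks above 0, 32.2% at like mean level, was 56.9% matched on the DMSO level and 16.6% on the TDCIPP level. The number of selected peaks was 2801, 2772, 3292 and 2185 with a 100 bp or 1000 bp tolerance, with an overlap of at least 50% of the TDCIPP peak needed to count as shared, and on assembled chromosomes. Higher calls were 11 at an FDR of 0.01 and 81 at 0.1, and 71 with Benjamini-Hochberg over all peaks. Lower calls were 0 at 0.01 (32 at an unadjusted p under 0.05 in the authors' table), 11 at 0.1 and 3 with Benjamini-Hochberg over all peaks. The median change of the selected peaks was 0.885 above the median level of the table and 0.96 relative to the table's median. For overlapping peaks it reversed to 0.19 when matched on the DMSO level and was -0.77 on the TDCIPP level, with widths of 503 and 655 bp. Selected peaks with another within 5 kb were 2.28% and within 50 kb 17.6%. Above the median level, 16 of 194 selected peaks (8.25%) and 202 of 14269 overlapping peaks (1.42%) lay on the chromosome 4 long arm. The removal of crowded peaks, the shares matched on other levels, the DMSO match of the 5-AzaC table and the groups of DMSO level were chosen after seeing the data. The cause of these shifts was not tested. The unknown depth limits all changes at levels near 0.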
